A study of Homo sapiens with 6 samples.

Results

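The human mitochondrial genome is a small circle of DNA that encodes 37 RNAs, namely 13 mRNAs, 2 rRNAs and 22 tRNAs. These were taken as the gene rows whose symbol starts with MT-, which gave 37 of the 62260 gene rows. Their levels were described in 6 libraries of TYK-nu, a line that the labels place under ovarian cancer. The 3 WT libraries came from the wild-type line, and the 3 ZNFX1 KO libraries from cells in which ZNFX1 was knocked out. ZNFX1 is an interferon-induced helicase known for sensing viral RNA at mitochondria. Cells of both groups were grown in the same medium, received no drug and carry the same batch number in the labels. The labels call the 3 libraries of a group biological replicates. Separate cultures are not stated, so each p reflects only how these samples scatter, which may be technical. The labels name neither the way the knockout was made nor a second KO line, so ZNFX1 loss and any other divergence of the lines cannot be told apart.

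Mitochondrial RNA is made by the single-subunit polymerase POLRMT as long precursors that run around both strands of the circle. In most places a tRNA lies between neighbouring rRNAs and mRNAs, and cutting out the tRNAs frees the RNAs beside them. The mRNAs encode core subunits of the respiratory chain and ATP synthase. The MT-ND genes belong to complex I, MT-CYB to complex III, the MT-CO genes to complex IV, and MT-ATP6 and MT-ATP8 to complex V. MT-RNR1 and MT-RNR2 are the 12S and 16S RNAs of the mitochondrial ribosome. Double-stranded RNA that forms where transcripts of both strands meet is known as a trigger of RNA sensors when it escapes from mitochondria.

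In GENCODE 29 (GRCh38), all 37 genes have the length given in the files. On the map read from MT-TF to MT-TP there are 36 junctions between neighbours. Of these 20 abut without a gap and 5 overlap, and the longest gap among them is 31 bases. The stretch that closes the circle, from the end of MT-TP (16023) round to the start of MT-TF (577), is not counted. One mRNA (MT-ND6) and 8 of the 22 tRNAs lie on the minus strand. The other RNAs lie on the plus strand of the map and are copied from the heavy strand. Of the 13 mRNAs, 7 end in a complete stop codon, and MT-ND1, MT-ND2, MT-ND3, MT-ND4, MT-CO3 and MT-CYB, 6 in all, end in an incomplete one that the poly(A) tail is known to complete. MT-ND6 is 35.6% G and 7.05% C, whereas the heavy-strand mRNAs hold 6.28% to 16.2% G and 29.5% to 36.0% C.

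The overlaps matter for the values, because reads from shared bases can be assigned to either gene. MT-ATP8 (mitochondrial chromosome, 8366 to 8572, plus strand) is shown whole, with the 46 bases it shares with MT-ATP6 in capitals. The last 60 bases of MT-ND4L (10707 to 10766) follow, with the 7 bases shared with MT-ND4 in capitals. The last 31 bases of MT-CO3 (9960 to 9990) and of MT-CYB (15857 to 15887) show the incomplete stop codon, whose single base is in capitals.
MT-ATP8: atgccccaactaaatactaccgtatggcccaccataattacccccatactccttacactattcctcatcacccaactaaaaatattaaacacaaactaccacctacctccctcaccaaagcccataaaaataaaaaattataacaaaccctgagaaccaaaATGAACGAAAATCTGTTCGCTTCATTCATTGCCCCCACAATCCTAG
MT-ND4L end: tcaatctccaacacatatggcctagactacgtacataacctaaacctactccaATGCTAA
MT-CO3 end: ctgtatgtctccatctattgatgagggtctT
MT-CYB end: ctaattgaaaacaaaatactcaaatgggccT

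The shortest members carry almost no reads, and the 2 tRNAs with the most are shown for their length. MT-TF (577 to 647) is the tRNA for phenylalanine that opens the heavy-strand transcript, and MT-TV (1602 to 1670) is the tRNA for valine between the 2 rRNAs. Both lie on the plus strand and are given as in GENCODE 29, without the CCA end added after transcription.
MT-TF: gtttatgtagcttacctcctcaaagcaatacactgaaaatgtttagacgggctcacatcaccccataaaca
MT-TV: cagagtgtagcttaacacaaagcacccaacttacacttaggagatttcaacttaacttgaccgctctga

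The libraries were made from 500 ng of total RNA with a stranded total RNA kit and read as pairs of 150 bases, per the labels. The gene rows held 19115530 to 21036063 reads (read pairs as estimated by Salmon) per library. ZNFX1 mRNA was at 109 to 208 CPM (counts per 1000000 after scaling) in WT and at 70.5 to 103 CPM across the KO libraries, with groups that did not overlap (log2 ratio of KO to WT -0.85 ± 0.27 SE, adjusted p = 0.218 in edgeR). A knockout can keep its mRNA, and ZNFX1 is itself interferon-induced. Its level was highest in WT 2, where 12 interferon-stimulated genes also had their highest sum (1981 TPM). By edgeR 0 of those 12 genes had a positive log2 ratio of KO to WT. The ZNFX1 mRNA level is thus no check of the knockout, and the link to these genes was not tested. Of 10 markers of ovarian and epithelial cells, 7 stayed under 1 TPM (transcripts per 1000000, a level per length) in every library. Among them were PAX8, EPCAM and CDH1, and MUC16 and FOLR1 had 0 reads. EPCAM had 31, 33.8 and 5.30 reads in WT 1, 2 and 3 and 0 in each KO library. KRT18 stood at 38.9 to 88.5 TPM, KRT8 at 3.76 to 11.5 TPM and WT1 at 1.13 to 2.36 TPM. The 7 endothelial markers summed to 114 to 216 TPM in WT and 137 to 197 TPM in the KO, led by CDH5. CDH5 itself stood at 67.5 to 103 TPM, PECAM1 at 16.2 to 69.9 TPM and TEK at 14.98 to 30.1 TPM. KDR stood at 8.79 to 11.4 TPM and ERG at 3.48 to 5.54 TPM. By contrast, VWF stood at 0.602 to 1.55 TPM and CLDN5 had only 1 read, in ZNFX1 KO 2. The leukocyte marker PTPRC had 0 reads, whereas CD68 stood at 80.2 to 182 TPM, and all 7 fibroblast markers stayed under 1 TPM. The part of these markers in the mitochondrial values was not tested.

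Taken as a whole, the 37 mitochondrial RNAs held 11.4%, 11.8% and 13.1% of the gene-row reads in WT 1, 2 and 3, and 10.3%, 15.5% and 11.1% in ZNFX1 KO 1, 2 and 3. The means were 12.1% ± 0.900 in WT and 12.3% ± 2.81 in the KO (SD, n = 3 each). The groups overlapped, with the lowest and the highest library both in the KO. Nearly all of these reads were rRNA. The share of the 2 rRNAs was 11.7% ± 0.771 in WT and 11.8% ± 2.65 in the KO. The 13 mRNAs together held only 0.429% ± 0.137 in WT and 0.474% ± 0.155 in the KO, and the 22 tRNAs 9 to 26 reads a library.

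**Figure D1:**
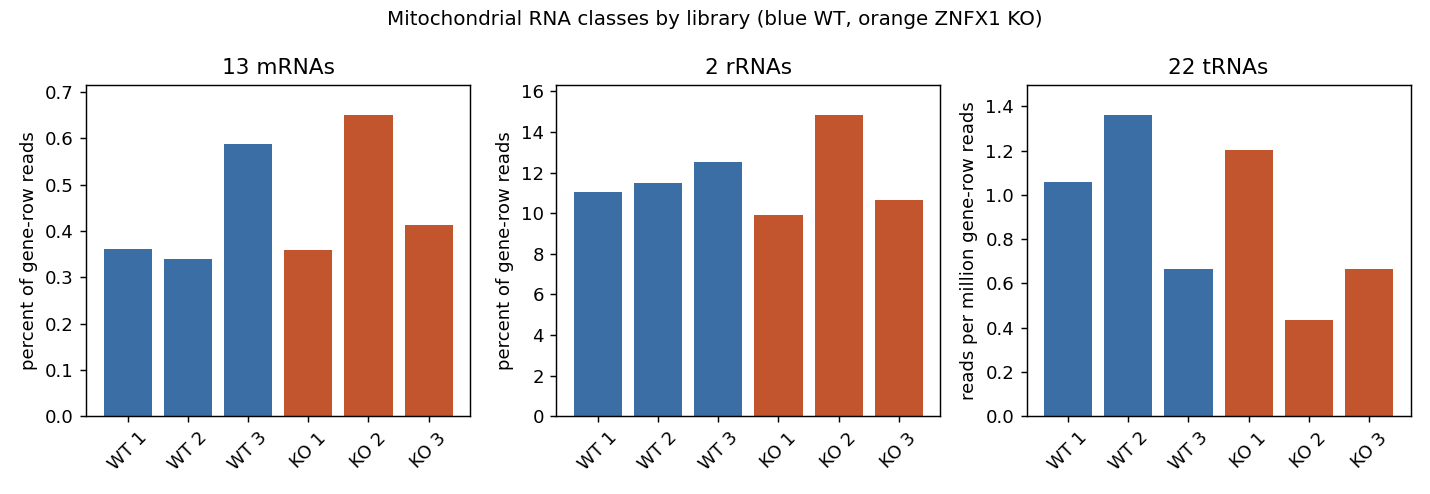
Share of the gene-row reads in the 13 mRNAs, 2 rRNAs (percent) and 22 tRNAs (reads per 1000000) in each library, as bars from 0. For mRNAs WT 3 (0.587%) and ZNFX1 KO 2 (0.650%) stand above the other libraries (0.339% to 0.412%), and for rRNAs ZNFX1 KO 2 is highest (14.8%).

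The mRNA share was 0.361%, 0.339% and 0.587% in WT 1, 2 and 3. It was 0.359%, 0.650% and 0.412% in ZNFX1 KO 1, 2 and 3. Thus 1 library of each group stood high, and the other 4 lay close together. Counting error is far smaller than these gaps, with 95% exact (Clopper-Pearson) intervals of at most ± 0.0035 percentage points for the mRNAs and ± 0.015 for the rRNAs. Such intervals cover counting error only. In bulk RNA, a change in the RNA per cell and a change in the mix of cells cannot be told apart.

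The same 2 libraries were the lowest in another class of RNA. A set of 8 small structured RNAs such as RN7SL1 and RN7SK held 7.56% of the gene-row reads in WT 3 and 6.75% in ZNFX1 KO 2, against 9.55% to 12.3% in the other libraries. RNA5-8SN2, a cytosolic 5.8S rRNA, had 22219 reads in ZNFX1 KO 2 and 881 to 4125 in the other libraries, with WT 3 (2283) inside that range. Their part in the mitochondrial values was not tested. Whether and how rRNA was removed is not given in the labels, so the rRNA levels are those left in the libraries.

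MT-RNR2, the 16S rRNA, had more reads than any other gene row in 6 of 6 libraries. It stood at 100107, 95099 and 106689 CPM in WT 1, 2 and 3 and at 90292, 133573 and 97532 CPM in ZNFX1 KO 1, 2 and 3. ZNFX1 KO 2 was above every other library, and ZNFX1 KO 1 was the lowest. The log2 ratio of KO to WT was 0.09 ± 0.24 (SE, adjusted p = 0.880 in edgeR). The files give this gene to 3 digits only, a rounding far below the spread between libraries.

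MT-RNR1, the 12S rRNA, was at 11617, 16049 and 13568 CPM in WT 1, 2 and 3. It was at 10016, 21503 and 10797 CPM in ZNFX1 KO 1, 2 and 3. The KO libraries thus lay on both sides of all WT libraries, and the log2 ratio of KO to WT was 0.04 ± 0.32 (SE, adjusted p = 0.966 in edgeR). Its sign turned without ZNFX1 KO 2 (-0.39) and with library totals as the only scaling (-0.04).

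The 2 rRNAs did not keep a fixed ratio. Per length (TPM), MT-RNR2 stood 4.89, 3.35 and 4.45 times as high as MT-RNR1 in WT 1, 2 and 3, and 5.10, 3.52 and 5.10 times in ZNFX1 KO 1, 2 and 3. The low values were those of WT 2 and ZNFX1 KO 2, which carry the same replicate number in the labels. Group means were 4.23 ± 0.790 and 4.57 ± 0.914 (SD, n = 3 each), and the groups overlapped.

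None of the 13 mRNAs passed edgeR's quasi-likelihood test between the groups. Of the 37 members, 15 had enough reads to be tested, namely the 13 mRNAs and the 2 rRNAs. Of these 0 passed an adjusted p of 0.05 and 0 had an unadjusted p under 0.05, where 0.727% of all 14166 tested genes were called. DESeq2 and limma-voom also called 0 members, where they called 4.09% and 0.536% of all tested genes. In 0 of the 15 were the groups free of overlap, against 20.2% of all tested genes. All 15 log2 ratios were positive with all 6 libraries, against 48.8% of all tested genes. The median over the 15 was 0.27, and over all tested genes -0.01. Without ZNFX1 KO 2 only 3 of the 15 remained positive and the median was -0.10, and without WT 3 it was 0.65. With WT 3 and ZNFX1 KO 2 both left out, 12 of 15 were positive and the median was 0.11.

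**Figure D2:**
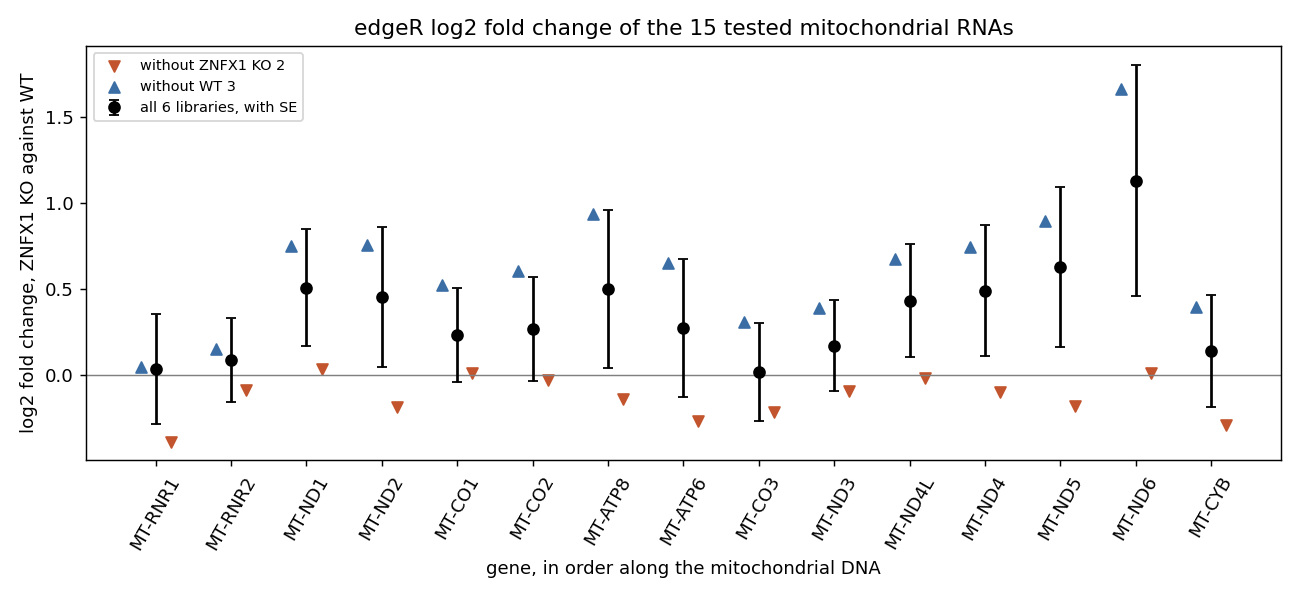
Log2 ratio of KO to WT for the 15 tested RNAs, in map order, with all 6 libraries (black, bars are the SE), without ZNFX1 KO 2 (orange) and without WT 3 (blue). The black points lie between 0.02 (MT-CO3) and 1.13 (MT-ND6), and leaving out ZNFX1 KO 2 brings 12 of the 15 below 0.

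The complex IV mRNAs were the most abundant of the 13 per length. MT-CO3 led in every library, followed by MT-CO1 and MT-CO2. MT-CO3 was at 1266 ± 595 TPM in WT and 1291 ± 503 TPM in the KO (SD, n = 3 each). MT-CO1, the catalytic subunit, was at 802 ± 371 and 949 ± 353 TPM. MT-CO2, the subunit that takes electrons from cytochrome c, was at 510 ± 260 and 617 ± 270 TPM. The SDs span the libraries' common shift, and the order of these 3 was the same in 6 of 6 libraries. Next came MT-ATP8, MT-ND3, MT-ATP6 and MT-ND4L, whose means over all libraries lay between 201 and 241 TPM and whose order changed between libraries. MT-ND1, MT-CYB and MT-ND4 followed at 123 to 143 TPM, also with changing order. MT-ND2 (62.3 TPM), MT-ND5 (46.7 TPM) and MT-ND6 (10.3 TPM) closed the list, in this order in 6 of 6 libraries. MT-RNR2 stood far above them, at 48720 TPM. The places of the short MT-ATP8 and MT-ND4L rest on the length correction. Their effective lengths are 62.2 to 63.6 bases of 207 and 136 to 138 bases of 297. Both also share bases with a neighbour, so the order of MT-ATP8 against MT-ATP6 and of MT-ND4L against MT-ND4 is uncertain. By CPM, MT-ATP8 and MT-ND4L stood below these neighbours.

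Between groups, MT-CO1 was at 1437, 1333 and 2246 CPM in WT 1, 2 and 3 and at 1569, 2555 and 1775 CPM in ZNFX1 KO 1, 2 and 3. WT 3 lay above ZNFX1 KO 1 and 3, so the groups overlapped. The log2 ratio of KO to WT was 0.23 ± 0.27 (SE, adjusted p = 0.695 in edgeR). MT-CO2 was at 343, 298 and 555 CPM across the WT libraries, against 387, 664 and 390 CPM across the KO libraries (log2 ratio of KO to WT 0.27 ± 0.30 SE, adjusted p = 0.682 in edgeR). MT-CO3 was at 1087, 878 and 1592 CPM across the WT libraries, against 901, 1575 and 1126 CPM across the KO libraries. It was the 1 mRNA that was highest in WT 3, and its log2 ratio of KO to WT was 0.02 ± 0.28 (SE, adjusted p = 0.981 in edgeR). With library totals as the only scaling the value of MT-CO3 was -0.05. The value of MT-CO1 was 0.013 without ZNFX1 KO 2 and 0.53 without WT 3.

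**Figure D3:**
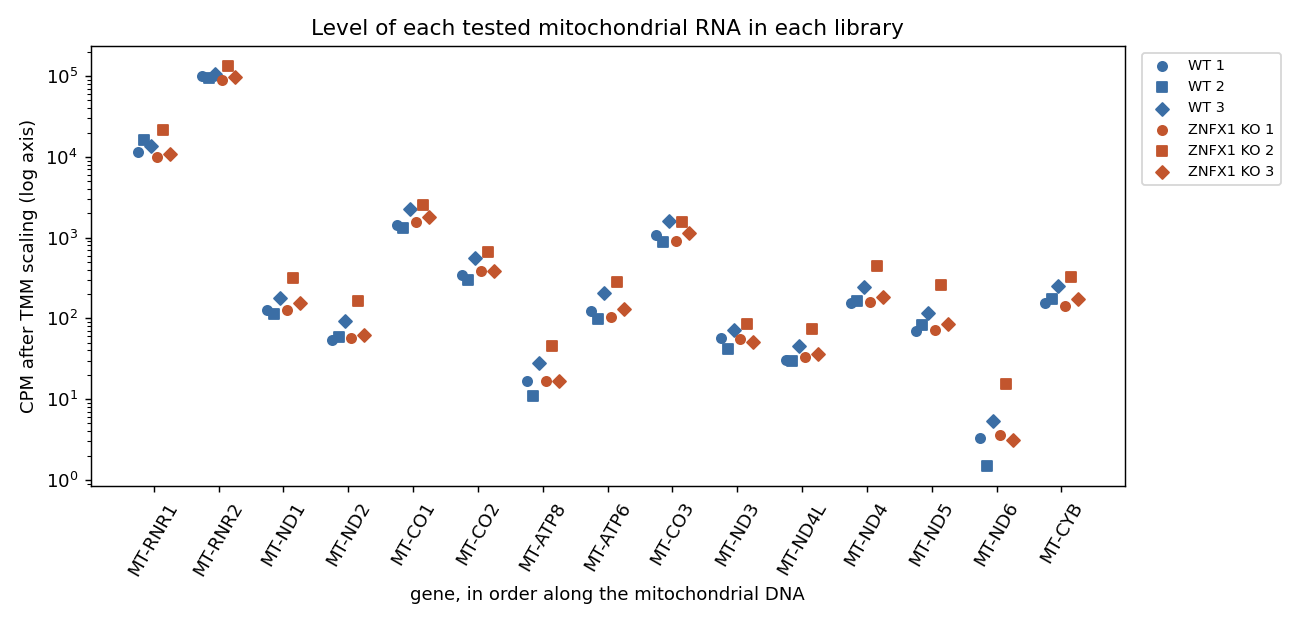
CPM of the 15 tested RNAs in each of the 6 libraries on a log axis, in map order (blue WT, orange ZNFX1 KO, 1 symbol per replicate number). ZNFX1 KO 2 (orange squares) is highest in 12 of 13 mRNAs and both rRNAs, and WT 3 (blue diamonds) is second in 12 of 13 mRNAs.

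Among the complex I mRNAs, MT-ND1 was at 126, 113 and 179 CPM in WT 1, 2 and 3 and at 129, 312 and 154 CPM in ZNFX1 KO 1, 2 and 3. MT-ND1 encodes a membrane subunit near the site where complex I binds ubiquinone. Its KO mean was 1.42 times that of WT, with a log2 ratio of KO to WT of 0.51 ± 0.34 (SE, adjusted p = 0.496 in edgeR). MT-ND4, a proton-pumping subunit, was at 154, 162 and 241 CPM across the WT libraries, against 158, 439 and 185 CPM across the KO libraries. Its log2 ratio of KO to WT was 0.49 ± 0.38 (SE, adjusted p = 0.554 in edgeR). Without ZNFX1 KO 2 the value was 0.03 for MT-ND1 and -0.10 for MT-ND4.

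MT-ND5, the longest of the mRNAs and another pumping subunit, was at 69.2, 81.9 and 117 CPM across the WT libraries, against 71.9, 259 and 84.6 CPM across the KO libraries. The log2 ratio of KO to WT was 0.63 ± 0.46 (SE, adjusted p = 0.534 in edgeR), and without ZNFX1 KO 2 it was -0.18. MT-ND2, also of the membrane arm, was at 54.2, 58.6 and 93.0 CPM across the WT libraries, against 57.7, 162 and 62.1 CPM across the KO libraries (log2 ratio of KO to WT 0.46 ± 0.41 SE, adjusted p = 0.602 in edgeR). The short MT-ND3 and MT-ND4L had log2 ratios of 0.17 ± 0.26 (SE) and 0.43 ± 0.33 (SE).

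MT-ND6 is the 1 mRNA copied from the light strand and had the lowest level of the 13. It was at 3.27, 1.47 and 5.38 CPM in WT 1, 2 and 3 and at 3.64, 15.5 and 3.13 CPM in ZNFX1 KO 1, 2 and 3, from 29 to 307 reads a library. It had the highest value of the 15 members in the comparison, with a log2 ratio of KO to WT of 1.13 ± 0.67 (SE, adjusted p = 0.446 in edgeR), and this value was 0.014 without ZNFX1 KO 2 and 1.66 without WT 3. ZNFX1 KO 1 and 3 lay within the range of the WT libraries. Reads copied from the opposite strand at the same positions would be told apart only if the counting used strand, which is not given in the sources used here.

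MT-CYB, which encodes cytochrome b, was at 157, 174 and 253 CPM across the WT libraries, against 144, 329 and 172 CPM across the KO libraries (log2 ratio of KO to WT 0.14 ± 0.33 SE, adjusted p = 0.856 in edgeR). Its sign turned without ZNFX1 KO 2 (-0.29). The complex V mRNAs MT-ATP6 and MT-ATP8 overlap in the 46 bases printed above. MT-ATP6, part of the proton channel, was at 122, 98.5 and 204 CPM across the WT libraries, against 103, 279 and 130 CPM across the KO libraries (log2 ratio of KO to WT 0.27 ± 0.40 SE, adjusted p = 0.762 in edgeR). MT-ATP8 was at 17.0, 10.8 and 27.9 CPM across the WT libraries, against 16.8, 45.4 and 16.7 CPM across the KO libraries (log2 ratio of KO to WT 0.50 ± 0.46 SE, adjusted p = 0.611 in edgeR). Both followed the same 2 libraries as the complex I mRNAs.

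The mRNAs varied more between libraries than most genes did. The highest library stood at a median of 2.75 times the lowest over the 13 mRNAs (range 1.81 to 10.5), against 1.85 over all tested genes, and 20.9% of all tested genes varied by at least that median. Within the KO, ZNFX1 KO 2 stood at a median of 2.21 times the mean of the other 2 libraries, from 1.53 (MT-CO1) to 4.57 (MT-ND6). Within WT, WT 3 stood at a median of 1.62 times the mean of the other 2, from 1.44 (MT-ND3) to 2.27 (MT-ND6). ZNFX1 KO 2 was thus raised unevenly, least in the complex IV genes MT-CO1 and MT-CO3 and most in MT-ND5 and MT-ND6.

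Ratios within a library do not depend on the scaling between libraries. As a share of the summed TPM of the 13 mRNAs, complex IV made up 68.3%, 68.2% and 68.4% in WT 1, 2 and 3. In ZNFX1 KO 1, 2 and 3 it made up 68.04%, 60.3% and 69.3%. So 5 libraries lay within a narrow band, and ZNFX1 KO 2 stood apart. Complex I made up 18.5%, 19.4% and 17.4% in WT and 19.5%, 22.8% and 18.2% in the KO. Complex V made up 9.74% ± 1.31 in WT and 10.7% ± 2.30 in the KO, and MT-CYB 3.55% ± 0.496 and 3.25% ± 0.296 (SD, n = 3 each). These shares depend on how the overlapping genes are counted. With the overlapping pairs summed, complex V had means of 5.25% in WT and 5.51% in the KO. Complex I then had means of 15.5% and 17.1%, and complex IV of 75.4% and 73.7%. All 4 complexes overlapped between the groups either way.

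Of the 13 mRNAs taken singly, the share of 1 was higher in every KO than in every WT library, the share of 1 was lower, and 11 overlapped. On another measure, CPM, the groups did not overlap in 20.2% of all tested genes. MT-ND1 made up 3.14%, 3.30% and 2.94% in WT 1, 2 and 3 and 3.31%, 4.19% and 3.50% in ZNFX1 KO 1, 2 and 3. ZNFX1 KO 1 and WT 2 differed only in the third digit. MT-CO3 made up 34.7%, 32.7% and 33.4% in WT and 29.7%, 27.0% and 32.7% in the KO. Here WT 2 and ZNFX1 KO 3 were equal to 3 digits. By reads in place of TPM, or with the overlapping pairs summed, the shares of MT-CO3 overlapped and those of MT-ND1 did not. These shares were described and not tested, and with 3 against 3 libraries an exact two-sided permutation test cannot go below p = 0.1.

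**Figure D4:**
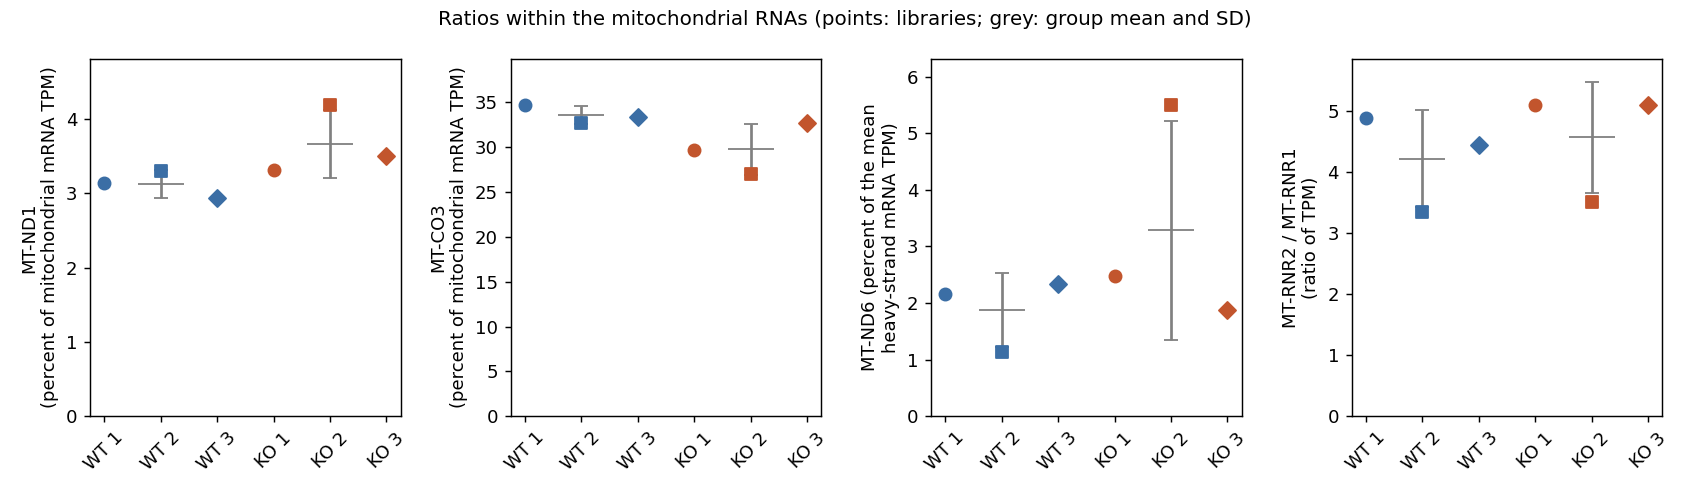
Share of MT-ND1 and MT-CO3 in the mitochondrial mRNA TPM, MT-ND6 as a percent of the mean heavy-strand mRNA TPM, and the ratio of MT-RNR2 to MT-RNR1 TPM, per library (points) with group mean and SD (grey). MT-ND6 reaches 5.49% in ZNFX1 KO 2 and lies between 1.13% and 2.48% elsewhere.

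Set against the heavy-strand mRNAs, the light-strand MT-ND6 stood at 2.16%, 1.13% and 2.34% of their mean TPM in WT 1, 2 and 3, and at 2.48%, 5.49% and 1.88% in ZNFX1 KO 1, 2 and 3. The means were 1.87% ± 0.653 and 3.28% ± 1.94 (SD, n = 3 each). ZNFX1 KO 2 stood far above the others, and WT 2, with 29 reads of MT-ND6, stood lowest. The rRNAs stood at 17.1, 20.4 and 12.1 times the summed TPM of the mRNAs in WT 1, 2 and 3 and at 15.8, 13.1 and 14.99 times in the KO, again with overlap.

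The 22 tRNAs, which carry amino acids to the mitochondrial ribosome, were barely read. They held 21, 26 and 14 reads in WT 1, 2 and 3 and 25, 9 and 13 reads in ZNFX1 KO 1, 2 and 3. The lowest share was 0.434 reads per 1000000 in ZNFX1 KO 2 (95% exact interval 0.198 to 0.824), the highest 1.36 in WT 2 (0.888 to 1.99). ZNFX1 KO 2, where the mRNA and rRNA shares were highest, had the lowest tRNA share, from 9 reads. Its interval overlapped those of WT 3 (0.364 to 1.12) and ZNFX1 KO 3 (0.355 to 1.14), so this lowest place is within counting error. Of the 22, 13 had at least 1 read in some library, 9 had 0 reads in all 6, and none passed the filter for testing. Rows with 0 reads allow up to 3 reads, or 0.143 to 0.157 reads per 1000000.

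MT-TV and MT-TF together held 75 of the 108 tRNA reads. MT-TV had 15, 11 and 4 reads in WT and 10, 3 and 6 in the KO, and MT-TF had 2, 6 and 9 in WT and 5, 3 and 1 in the KO. Both genes abut MT-RNR1, so a read pair that reaches into the rRNA could be assigned to either. The other 11 tRNAs with reads had 1 to 7 each, led by MT-TE with 7 and MT-TL1 with 6. The 14 plus-strand tRNAs had 93 reads and the 8 minus-strand tRNAs 15. At 59 to 75 bases the tRNAs are shorter than a single 150-base read, and their effective lengths in the files are only 6.03 to 8.62 bases. The level of mature tRNA cannot be read from these rows.

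**Figure D5:**
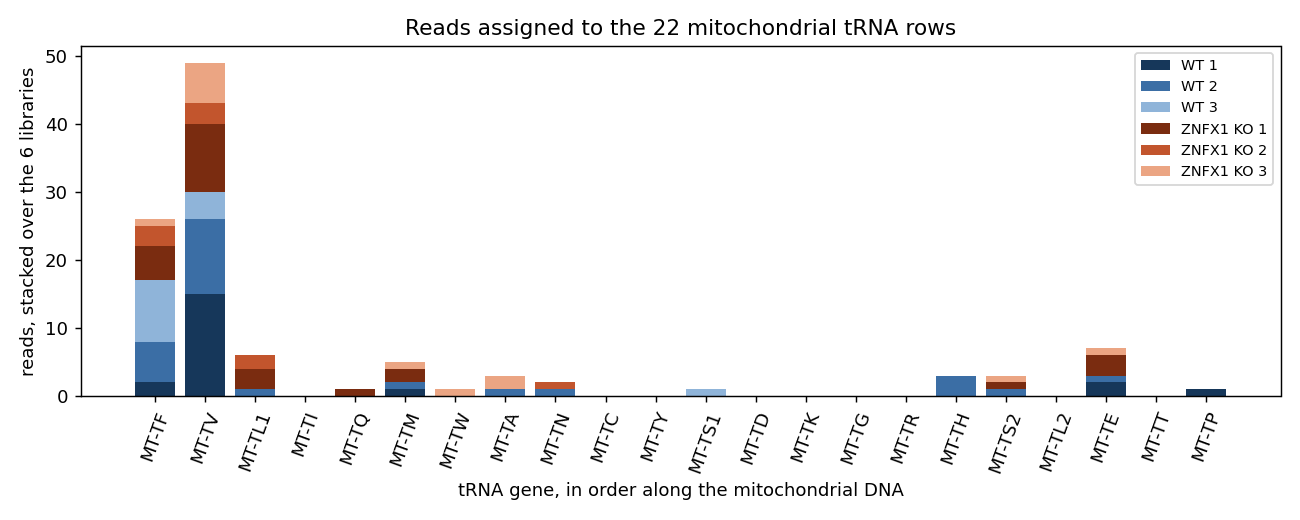
Reads assigned to each of the 22 tRNA rows, in map order, stacked over the 3 WT (blue) and 3 ZNFX1 KO (orange) libraries. MT-TV (49 reads) and MT-TF (26 reads) stand above the rest, and 9 tRNAs have 0 reads.

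Nuclear copies of mitochondrial DNA can take reads from the members. Among 404 nuclear pseudogenes and MTRNR2-like genes found by name, MTATP6P1 held 81.6% to 91.2% of the reads of the set. MTATP6P1 differs from MT-ATP6 at 10 of 681 positions (98.5% identity). It had 307, 256 and 625 reads in WT 1, 2 and 3 and 289, 802 and 317 in ZNFX1 KO 1, 2 and 3. These are 12.7% to 14.5% of the reads of MT-ATP6 in the same library, so the 2 rows moved together and the split between them is uncertain. The log2 ratio of MTATP6P1 was 0.31 ± 0.44 (SE, adjusted p = 0.752 in edgeR). Of the set 3 were tested (MTATP6P1, MTND2P28 and MTCO1P12), with 0 called by edgeR, DESeq2 or limma-voom and 0 at an unadjusted p under 0.05. Of all tested genes these tools called 0.727%, 4.09% and 0.536%, and 15.1%, 15.8% and 14.9% had such an unadjusted p.

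The nuclear genes that make, cut, modify, stabilise and degrade mitochondrial RNA were read from 5 lists of 54 genes, all tested. Of these 54, 0 rose and 0 fell by edgeR's test, where 0.727% of all tested genes were called. In 3 (5.56%) the unadjusted p was under 0.05, against 15.1% of all tested genes. DESeq2 and limma-voom also called 0, where they called 4.09% and 0.536% of all tested genes. In 7 (12.96%) the groups did not overlap, against 20.2% of all tested genes. The median log2 ratio was 0.15, with 39 of 54 positive, against 48.8% of all tested genes. Without WT 3, edgeR called 3 of the 54 (5.56%) as higher, namely TFAM, FASTKD5 and MRM2, where 4.09% of all genes tested in that fit were called as higher.

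Of the 10 transcription and termination genes, TFAM, which packages mitochondrial DNA and starts its transcription, was at 58.3 ± 22.3 CPM across the WT libraries, against 75.0 ± 2.09 CPM in the KO, as mean and SD of 3 libraries each. Its log2 ratio of KO to WT was 0.36 ± 0.25 (SE, adjusted p = 0.512 in edgeR) and reached 0.74 (adjusted p = 0.0378) without WT 3. MTERF3, a factor that binds mitochondrial DNA, was at -0.09 ± 0.23 (SE). TFB2M, which melts the promoter for POLRMT, had the smallest unadjusted p of the 54 and was picked once its values were known. It stood at 29.8 ± 1.80 CPM across the WT libraries, against 43.4 ± 4.15 CPM across the KO libraries (log2 ratio of KO to WT 0.54 ± 0.16 SE, adjusted p = 0.193 in edgeR), and all 3 KO libraries lay above the 3 WT ones.

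Of the 15 tRNA excision and maturation genes, HSD17B10, a subunit of the RNase P that cuts the tRNA 5' end, was at 0.04 ± 0.19 (SE). ELAC2, the nuclease of the 3' end, was at 0.45 ± 0.27 (SE, adjusted p = 0.441 in edgeR). Of the 12 genes of mRNA stability and granules, LRPPRC, which with SLIRP protects the mRNAs and holds them ready for polyadenylation, was at 169 ± 49.9 CPM across the WT libraries, against 205 ± 11.01 CPM across the KO libraries. Its log2 ratio of KO to WT was 0.28 ± 0.23 (SE, adjusted p = 0.581 in edgeR), and that of SLIRP was 0.51 ± 0.28 (SE, adjusted p = 0.409 in edgeR). GRSF1, an RNA granule protein picked once its values were known, was at -0.74 ± 0.30 (SE, adjusted p = 0.307 in edgeR), with groups that overlapped. It stood at 19.4, 16.7 and 21.8 CPM in WT 1, 2 and 3 and at 7.52, 17.2 and 9.91 CPM in ZNFX1 KO 1, 2 and 3. Of the KO libraries only ZNFX1 KO 2 lay within the WT range.

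Of the 4 decay genes, SUPV3L1, the helicase of the mitochondrial degradosome, was at -0.23 ± 0.18 (SE, adjusted p = 0.557 in edgeR). REXO2, which clears short RNA fragments, was at -0.13 ± 0.18 (SE). Of the 13 genes of rRNA modification and ribosome assembly, DHX30 was at 0.02 ± 0.21 (SE) and ERAL1, a chaperone of the 12S rRNA, at 0.15 ± 0.17 (SE). MRM2, a methyltransferase of the 16S rRNA that was likewise picked, was at 12.3 ± 3.62 CPM across the WT libraries, against 20.0 ± 0.782 CPM across the KO libraries (log2 ratio of KO to WT 0.70 ± 0.23 SE, adjusted p = 0.235 in edgeR). Each of these lists had members on both sides of 0 and none that passed the test.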

How the data were processed

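Total RNA of 3 WT and 3 ZNFX1 KO samples was sequenced. The deposited files hold the authors' Salmon output, namely estimated counts per gene and TPM values with effective lengths, per the labels. FastQC, Trimmomatic and DESeq2 are also named in the submitters' processing notes. For versions, genome build and use of strand the sources used here give nothing. The largest counts are written to 3 digits. Transcript rows not joined to a gene (9.93% to 10.7% of reads) were left out. Columns of per-sample values not used: 0.

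Groups and replicate numbers came from the titles. Estimated counts were rounded, filtered with filterByExpr (14166 genes, at least 99.8% of gene-row reads), scaled by TMM (factors 0.958 to 1.04) and tested with edgeR 4.0.16 in R 4.3.3 by the two-sided quasi-likelihood test with Benjamini-Hochberg adjustment over all genes. The SE came from the log2 ratio and the root of its F statistic. CPM values follow TMM scaling. Shares and ratios were not tested. The pairs of libraries within a group differed beyond sampling noise (a chi-square of at least 30.4 for each degree of freedom). Names came from a gene table (37 of 37 matched), coordinates and sequences from GENCODE 29.

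On simulated data (13854 genes, 200 changed) the test of ZNFX1 KO against WT recovered 34% of 2-fold and 89% of 4-fold changes, with 11 false calls among 134.

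The members and lists were chosen with earlier results of these data known. All members were described, with values per library for those tested. Nuclear genes were named by rule (up to 3 called per list and direction, else at most the 2 most abundant), and others are marked as chosen after their values were seen. The alternatives were DESeq2 1.42.0 size factors and Wald test, library totals, scaling without mitochondrial rows, no filter, a stricter filter (1 CPM in 3 libraries), limma 3.58.1 (voom, log2(TPM + 1), log2(TPM + 0.1)), an effective length offset, the replicate block, other denominators, summed overlapping pairs, and leaving out each library. Leaving out WT 3 and ZNFX1 KO 2 together was added after the data were seen. edgeR called 0 of 12 interferon-stimulated genes, 0 of 8 cell cycle genes and 0 of 8 small structured RNAs (0.727% of all tested genes). At an unadjusted p under 0.05 were 7, 0 and 1 (15.1% of all tested genes). DESeq2 called 1, 0 and 0 (4.09%), with 6, 3 and 1 at that p (15.8%). By limma-voom 0 were called in each (0.536%), with 2, 4 and 1 at that p (14.9%). By edgeR 0 of the 12 interferon-stimulated genes had a positive log2 ratio (median -1.17), 8 of the 8 cell cycle genes (0.72) and 1 of the 8 small structured RNAs (-0.19). The interferon-stimulated genes summed to 809, 1981 and 894 TPM in WT 1, 2 and 3, and to 854, 548 and 606 TPM in ZNFX1 KO 1, 2 and 3. The cell cycle genes summed to 242, 113 and 544 TPM in WT and to 458, 506 and 479 TPM in the KO. Both sums overlapped between the groups.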

Additional observations from a re-analysis of the deposited data

How the results depend on the processing

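The count of 0 called members held in all 18 alternatives (smallest adjusted p of the 15 tested members 0.188, edgeR without WT 3). The sign of single members did not hold: 25 of 270 values turned negative, and only MT-CO1, MT-ND1 and MT-ND6 never did. With library totals MT-RNR1 was at -0.039 and MT-CO3 at -0.054. MT-RNR1 was also at -0.040 with limma-voom, -0.0090 with limma on log2(TPM + 1) or log2(TPM + 0.1), and -0.041 with the replicate block. With WT 1 and 2 against ZNFX1 KO 1 and 3, MT-RNR1 was at -0.39, MT-RNR2 at -0.040 and MT-CYB at -0.052, and the complex I share of mitochondrial mRNA differed by -0.053 percentage points (KO minus WT) in place of 1.76. Leaving out 1 library moved the members' median between -0.10 and 0.65, the calls in the nuclear lists between 0 and 3, and the calls over all genes between 2 and 1315. Single values over these ranged from -0.39 to 0.24 for MT-RNR1, -0.086 to 0.20 for MT-RNR2, -0.18 to 0.76 for MT-ND2, -0.025 to 0.60 for MT-CO2, -0.14 to 0.94 for MT-ATP8, -0.27 to 0.65 for MT-ATP6, -0.21 to 0.31 for MT-CO3, -0.090 to 0.39 for MT-ND3, -0.018 to 0.68 for MT-ND4L, -0.10 to 0.75 for MT-ND4, -0.18 to 0.94 for MT-ND5, -0.29 to 0.40 for MT-CYB, 0.013 to 0.53 for MT-CO1, 0.033 to 0.75 for MT-ND1 and 0.014 to 1.66 for MT-ND6, with the low end of each of the last 3 without ZNFX1 KO 2 and the high end without WT 3. The tRNA share differed by -0.00198 percentage points by summed TPM and by -2.6e-05 by reads. Calls over all genes were 103, and 602 with no filter, 579 with DESeq2, 48 and 66 with limma on log2(TPM + 1) and log2(TPM + 0.1), 14 with the replicate block and 58 with WT 1 and 2 against ZNFX1 KO 1 and 3. The cause of these shifts was not tested. Same-numbered libraries had correlations of their deviations of 0.13, -0.04 and 0.01, against -0.096 to 0.093 for libraries of unlike number. Whether the numbers pair the samples cannot be told from values this close to each other. The replicate block is given as an alternative only. At 9 to 26 reads a library, depth allowed no test of the tRNAs.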
